A study of Mus musculus with 9 samples.

Results

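B cells and the plasma cells they give rise to were followed in the mouse aortic arch through 9 marker genes: Ms4a1, Cd79a, Cd79b, Blk, Pax5, Cd22, Fcrla, Jchain and Pou2af1. The members were taken by symbol from a deposited table of 21989 genes, in which all 9 were found. RNA sequencing had been done on 9 libraries of aortic arch, where the great vessel bends away from the heart, in 3 groups of 3. High dose libraries came from ApoE-/- mice, which lack the apolipoprotein that clears remnant lipoproteins from blood, kept on high-fat diet for 15 weeks and given 5.12 g/kg/day of ZCL, a preparation of the herb Ziziphora clinopodioides, by gavage. Model libraries came from ApoE-/- mice on the high-fat diet alone, and control libraries from C57BL/6J mice on standard diet, so genotype and diet differed together between those groups. Each study group had 20 mice. Whether each library is a different mouse, or a pool, is not stated in the labels, so the p-values cover the spread among these libraries alone, and that spread may be technical. All libraries carry the same batch label.

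B cells recognise antigen with a membrane immunoglobulin that signals through the paired chains CD79A and CD79B. The factor PAX5 holds cells in the B lineage and is switched off as they become plasma cells, which secrete antibody and join it into polymers with the J chain. In atherosclerotic mice B cells are known from the adventitia, from lymphoid tissue beside the artery and from the surrounding fat, and they are few in the plaque itself. Antibodies that bind oxidised lipoproteins are among their products.

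Values are FPKM, in which the authors' fragments are divided by transcript length and sequencing depth, so levels can be set side by side between genes. After scaling by relative depth the values of a gene were whole multiples of 1 step within 0.02 fragments, which gave whole fragments for 16876 of the 16882 genes above 0 in at least 4 libraries. The recovered fragments summed to between 11651001 in control 2 and 20679482 in model 1. Apoe, read as a check of the labels, lay between 18.9 and 93.7 FPKM in the libraries labelled ApoE-/- and between 339.9 and 1006 FPKM in control. The smooth muscle actin gene Acta2, which marks the arterial wall, lay between 177 and 1857 FPKM in all 9 libraries. Genes of other tissues stood apart in some libraries. The airway secretory gene Scgb1a1 stood at 20438 FPKM in high dose 2 and 6425 in control 2, against at most 68.6 elsewhere. The heart muscle myosin gene Myh6 lay between 634 and 2729 FPKM in high dose 2 and 3 and control 1 and 2, against at most 6.34 elsewhere.

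B lineage genes were high in 1 library of each group and low in most others. The mean of log2(FPKM + 1) over the 9 members was 3.70 in high dose 1, 3.36 in model 2 and 4.37 in control 2. The other 6 libraries lay between 1.11 in high dose 3 and 2.31 in high dose 2. No member separated the groups, and for all 9 the difference between any 2 groups was smaller than the residual SD within groups on the log2 scale. In bulk tissue, fewer B cells and less RNA per B cell cannot be told apart.

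**Figure D1:**
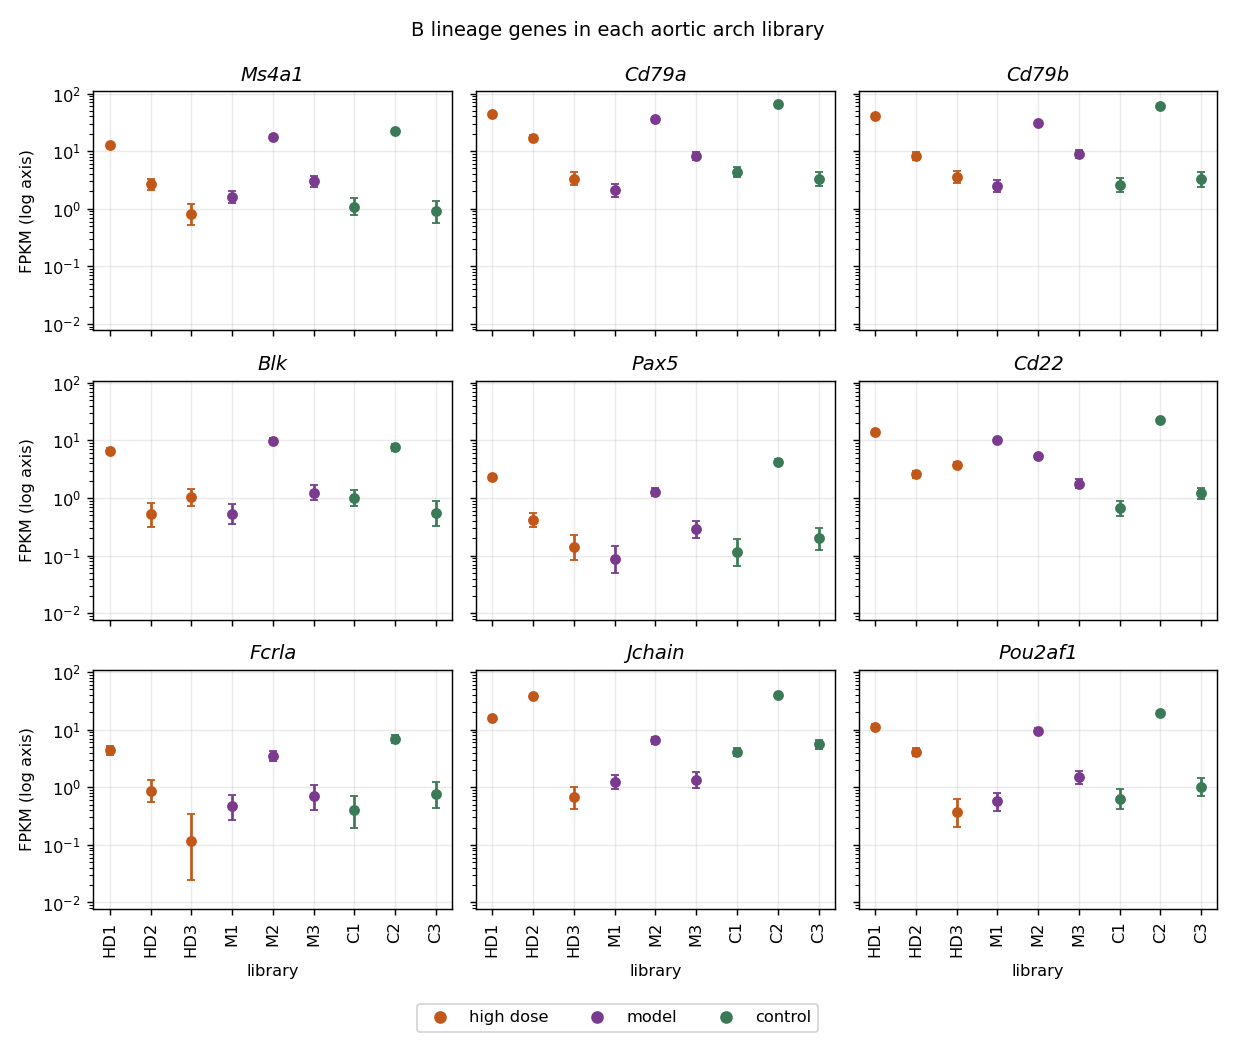
FPKM of each member (vertical log axis) in the high dose (HD), model (M) and control (C) libraries, numbered by replicate. Bars are 95% exact Poisson intervals of the recovered fragments and cover counting error only; HD1, M2 and C2 lie above the other libraries for most members, except that Jchain is also high in HD2 and Cd22 in M1.

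The signalling chains of the B cell receptor had the highest mean FPKM of the members in model and in control, and in high dose only Jchain lay between them. Cd79a, on chromosome 7 (24897381 to 24902197, plus strand, GENCODE M21 on GRCm38), stood at 43.6, 17.0 and 3.35 FPKM in high dose 1, 2 and 3, at 2.10, 35.7 and 8.18 FPKM in model 1, 2 and 3, and at 4.36, 66.4 and 3.31 FPKM in control 1, 2 and 3. Its partner Cd79b, on chromosome 11 (106311341 to 106314762, minus strand), stood at 41.1, 8.18 and 3.55 FPKM in high dose 1, 2 and 3, at 2.50, 31.2 and 8.87 FPKM in model, and at 2.63, 59.8 and 3.25 FPKM in control. Both chains were therefore highest in the same library of each group, and all 3 groups overlapped. The ratio of Cd79b to Cd79a lay between 0.603 and 1.19 in 8 libraries and was 0.481 in high dose 2. Neither gene shares exon bases with another annotated gene.

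The other surface and kinase genes of mature B cells followed the same libraries. Ms4a1, which encodes the surface protein CD20 (chromosome 19, 11249675 to 11266241, minus strand), stood at 12.6, 2.68 and 0.818 FPKM in high dose 1, 2 and 3, at 1.59, 17.9 and 3.01 FPKM in model, and at 1.09, 22.7 and 0.898 FPKM in control. In control, Ms4a1 was 20.9 times as high in the highest library as in the next. Blk, a Src family kinase of the B lineage (chromosome 14, 63372836 to 63417037, minus strand), stood at 6.61, 0.530 and 1.03 FPKM in high dose, at 0.536, 9.89 and 1.24 FPKM in model, and at 1.01, 7.61 and 0.560 FPKM in control. Blk was the only member whose highest value of all fell in model 2. Fcrla, an Fc receptor-like protein kept inside B cells (chromosome 1, 170917576 to 170927583, minus strand), stood at 4.37, 0.879 and 0.117 FPKM in high dose, at 0.466, 3.49 and 0.694 FPKM in model, and at 0.396, 6.86 and 0.758 FPKM in control. Its value in high dose 3 rested on 3 fragments.

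Cd22 departed from the other members in model 1. It encodes an inhibitory lectin that dampens B cell receptor signals (chromosome 7, 30865402 to 30880342, minus strand). Cd22 stood at 14.0, 2.58 and 3.75 FPKM in high dose 1, 2 and 3, at 10.2, 5.30 and 1.77 FPKM in model, and at 0.661, 22.3 and 1.21 FPKM in control. In model 1 Cd22 was 4.85 times as high as Cd79a, in high dose 3 it was 1.12 times, and in the other 7 libraries the ratio lay between 0.149 and 0.366. The macrophage list of 12 genes had a mean of log2(FPKM + 1) of 6.41 in model 1 and 6.06 in high dose 3. Model 2 lay close behind at 5.98, and its ratio of Cd22 to Cd79a was the lowest of all, at 0.149. The other libraries had list means between 3.31 and 5.18. Cd68, a lysosomal protein of macrophages, stood at 396 FPKM in model 1, 144 in high dose 3 and 67.5 in model 2. Adgre1 and Itgam of the same list were instead highest in model 2, at 27.8 and 79.1 FPKM. Whether macrophages or other cells account for part of the Cd22 signal was not tested. Cd22 shares 479 exon bases with the antisense gene Gm29439, and the strand setting of the authors' counting is not given in the sources used here, so reads from the 2 genes cannot be told apart over those bases.

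Among the lineage factors, Pax5 had the lowest mean FPKM of all members in each group, and both factors peaked in the libraries named above. Pax5 (chromosome 4, 44524757 to 44710487, minus strand) stood at 2.29, 0.420 and 0.142 FPKM in high dose 1, 2 and 3, at 0.0883, 1.27 and 0.290 FPKM in model, and at 0.116, 4.27 and 0.201 FPKM in control. The value in model 1 rested on 15 fragments, with a 95% exact Poisson interval of 0.0494 to 0.146 FPKM, and that in control 2 on 409, with an interval of 3.87 to 4.71. Pax5 shares 636 exon bases with genes annotated on the opposite strand, Gm12462 and 5730488B01Rik, whose reads cannot be told apart there for the same reason. Pou2af1, which encodes the coactivator OBF-1 of the octamer-binding factors (chromosome 9, 51213708 to 51240080, plus strand), stood at 11.3, 4.06 and 0.367 FPKM in high dose, at 0.572, 9.56 and 1.51 FPKM in model, and at 0.631, 19.9 and 1.02 FPKM in control. Its ratio to Cd79a lay between 0.110 and 0.308 in all 9 libraries.

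Jchain was the other member with an order of its own. It encodes the chain that joins IgM and IgA into polymers (chromosome 5, 88519809 to 88527891, minus strand). Jchain stood at 16.0, 38.1 and 0.672 FPKM in high dose 1, 2 and 3, at 1.24, 6.52 and 1.36 FPKM in model, and at 4.15, 39.8 and 5.57 FPKM in control. High dose 2 and control 2 lay close together at the top. All model libraries lay below high dose 1 and 2 but above high dose 3, so the groups overlapped. Relative to Cd79a, Jchain was 2.24 in high dose 2, 1.68 in control 3 and 0.950 in control 1, and between 0.167 and 0.600 in the other 6 libraries. High dose 2 and control 2 were also the 2 libraries with airway genes, where the list of 10 airway and lung genes had a mean log2(FPKM + 1) of 7.57 and 6.91, against 0.997 to 2.06 elsewhere. The share of airway tissue in the Jchain signal was not tested, and control 3 and 1 had a high ratio to Cd79a with airway means of 1.35 and 1.57.

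Promoter stretches are shown for Cd79a and Fcrla, which peaked in the same libraries and hold 2 motif matches each before the gene, and for Cd22, which departed in model 1 and holds the rarest of the motifs found. RefSeq promoter windows of GRCm38.p6, 250 bases before to 50 after the annotated start, were found for 6 of the 9 members. The letters below run 5′ to 3′ on the strand of the gene, leave out annotated exon bases, and have matches in capitals: CAGGTG, an E box bound by E2A, GAGGAA, an ETS core bound by PU.1, and the palindromic core bound by EBF1, each on either strand.
Cd79a (chr7:24897247-24897380): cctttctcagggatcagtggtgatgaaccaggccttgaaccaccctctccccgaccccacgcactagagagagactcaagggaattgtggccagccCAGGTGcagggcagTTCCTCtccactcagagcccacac
Fcrla (chr1:170927584-170927733): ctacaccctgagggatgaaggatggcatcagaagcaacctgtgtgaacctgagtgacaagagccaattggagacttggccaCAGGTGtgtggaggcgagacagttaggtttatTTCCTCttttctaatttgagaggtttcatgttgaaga
Cd22 (chr7:30879029-30879176): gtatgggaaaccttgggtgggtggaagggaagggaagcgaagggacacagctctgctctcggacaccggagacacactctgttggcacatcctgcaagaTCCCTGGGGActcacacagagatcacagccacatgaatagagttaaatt
The E box was found in 4 of the 6 full windows (Cd22, Cd79a, Fcrla and Jchain, that of Cd22 in exon bases not shown) and in 20.2% of all 32817 windows searched. The stretch of Cd22 lies inside the longer gene that GENCODE annotates. The ETS core was found in 3 of the 6 (Cd79a, Fcrla and Pou2af1) and in 28.3% of all windows. The EBF1 motif was found in that of Cd22 and in 0.905% of all windows, and the octamer ATGCAAAT in 0 of the 6 and in 1.74% of all windows. A match is a description of letters in a window and marks no known site.

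Differences between groups were tested with limma on log2(FPKM + 1), in 1 fit of all 9 libraries, over the 12895 genes with at least 1 FPKM in at least 3 libraries, with Benjamini-Hochberg adjustment over all of them. All 9 members passed this filter, Pax5 and Fcrla only through high dose 1, model 2 and control 2. Fold changes on this scale understate the change of low genes.

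The comparison of model with control asks what loss of ApoE and the fatty diet changed jointly. None of the 9 members differed at an adjusted p under 0.05, beside 0 of all 12895 genes (percent called 0), and 0 members had an unadjusted p under 0.05, against 821 of all genes. Fitted with voom on the recovered fragments, 0 of 12886 genes passed and 679 had an unadjusted p under 0.05. On the log2 scale 4 members had values above 0 and 5 below 0, with a median log2 difference of -0.19, against -0.010 for all genes tested. By mean FPKM 8 members were lower and 1, Blk, was higher in model, and Cd22, Cd79b and Ms4a1 had opposite signs on the 2 scales. Cd79a averaged 15.3 ± 17.9 FPKM in model and 24.7 ± 36.1 FPKM in control (SD, n = 3 each), a log2 difference of -0.19 ± 1.30 (SE, limma adjusted p = 0.990). Ms4a1 averaged 7.51 ± 9.06 FPKM in model and 8.24 ± 12.5 FPKM in control, with a log2 difference of 0.35 ± 1.17 (limma adjusted p = 0.978). Jchain had the largest difference of the members, at 3.04 ± 3.01 FPKM in model and 16.5 ± 20.2 FPKM in control, a log2 difference of -1.71 ± 1.20 (limma adjusted p = 0.828). Without control 2, a library with airway genes, that difference was -0.77, and leaving out each library in turn gave -2.28 to -0.77. The groups overlapped in all 9 members, while of all genes tested 6.91% lay higher and 9.06% lower in every model library than in any control library. The sign of the difference depended on single libraries: Cd79a had a log2 difference of 1.08 without control 2, 0.66 without model 1 and -1.12 without model 2.

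The comparison of high dose with model asks what ZCL changed at the same genotype and diet. Again 0 of 9 members and 0 of 12895 genes passed (percent called 0), with 0 members and 1729 genes at an unadjusted p under 0.05. With voom 0 genes passed and 1505 had an unadjusted p under 0.05. On the log2 scale 7 members had values above 0 and 2 below 0, with a median log2 difference of 0.22, against 0.00080 for all genes, and the means of FPKM gave the same 7 and 2. Jchain averaged 18.3 ± 18.8 FPKM in high dose and 3.04 ± 3.01 FPKM in model, a log2 difference of 1.60 ± 1.20 (SE, limma adjusted p = 0.548). That of Jchain was 0.64 without high dose 2, the other library with airway genes, and 2.92 without high dose 3. Cd79a averaged 21.3 ± 20.5 FPKM in high dose and 15.3 ± 17.9 FPKM in model, with a log2 difference of 0.58 ± 1.30 (limma adjusted p = 0.863). Ms4a1 and Blk, the members with lower values, had log2 differences of -0.37 ± 1.17 and -0.22 ± 0.942. All 9 members overlapped between the groups, where 11.7% of genes lay higher and 10.9% lower in every high dose library than in any model library. Without high dose 1 the log2 difference of Cd79a was -0.20, without model 1 it was -0.28, and without model 2 it was 1.51.

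High dose was also set against control, a comparison that shares its libraries with both others. No member and no gene passed (0 of 9 and 0 of 12895, percent called 0), with 0 members and 701 genes at an unadjusted p under 0.05, and with voom 0 genes passed and 638 had one. The median log2 difference of the members was -0.016, against 0.0021 for all genes, with 4 members above 0 and 5 below 0. By mean FPKM 8 members were lower and 1, Jchain, was higher in high dose. Cd22 had the largest value, a log2 difference of 0.52 ± 1.02 (SE, limma adjusted p = 0.957), from 6.77 ± 6.27 FPKM in high dose and 8.06 ± 12.3 FPKM in control. The log2 difference and the difference of means have opposite signs for 5 members, Cd22, Cd79a, Cd79b, Jchain and Pou2af1. The groups overlapped in all 9 members, against 3.66% of genes higher and 5.02% lower without overlap.

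**Figure D2:**
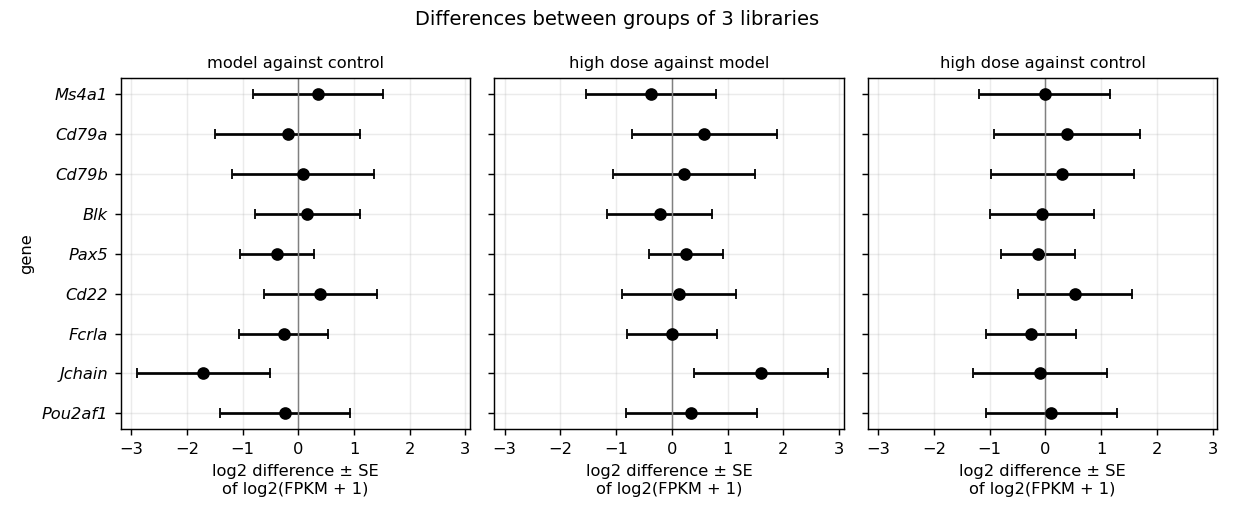
Log2 difference of each member (horizontal axis, mean ± SE of the limma fit of log2(FPKM + 1), 3 libraries a group) in 3 comparisons, where a positive value means higher in the group named first. All values lie between -1.71 and 1.60, both for Jchain, and no member passed the test.

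The residual SD of log2(FPKM + 1) within groups had a median of 1.70 over the 9 members and ran from 0.923 for Pax5 to 1.91 for Cd79a. Over all genes tested its median was 0.400 and its 90th percentile 0.980, which 8 of the 9 members exceeded. Most members were high in the same library of each group, as described above, so this spread restates that profile and is no separate result. A member value rested on a median of 93 fragments (range 3 to 1249).

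Genes with the nearest profile over the 9 libraries were looked for among all genes tested, by the root mean square difference between standardised log2(FPKM + 1) profiles, where 0 is identical. The mean profile of the members served as the standard, to which the members themselves contribute. Among genes that are not members, near ones were Spib, a transcription factor of the ETS family, at 0.192, Siglecg, an inhibitory lectin of B cells, at 0.213, and Gimap3, a GTPase of lymphocytes, at 0.215. Fcmr, the receptor for IgM, the lymphoid factor gene Ikzf3 and the ion channel relative Tmc8 followed, between 0.234 and 0.280. Of the members, Pou2af1 and Fcrla lay nearest at 0.140 and 0.173 and Cd22 and Jchain farthest at 0.707 and 0.732. Nearest to Jchain were Kank4 at 0.333 and Sidt1 at 0.336, which reached at most 2.53 and 2.80 FPKM, followed by Sez6, Sgsm3, Mal2, Tmem25, Irx3 and Fabp7, between 0.375 and 0.405.

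The 3 libraries high in B lineage genes differed in which other lymphocyte genes they held. The mean log2(FPKM + 1) of 12 T cell genes was 2.54 in high dose 1, 1.32 in model 2 and 3.35 in control 2. Cd3e, a chain of the T cell receptor complex, stood at 5.29 FPKM in high dose 1, 1.27 in model 2 and 13.6 in control 2. Relative to Cd79a, Cd3e was 0.121 in high dose 1, 0.0357 in model 2 and 0.204 in control 2. Glycam1, a mucin-like ligand made by the high endothelial venules of lymph nodes, stood at 38.6 FPKM in high dose 1, was listed at 0 in model 2 and stood at 20.5 FPKM in control 2. Chst4, a sulfotransferase of the same venules, had another order, at 0.446 FPKM in high dose 1, 2.67 in model 2 and 9.55 in control 2, and at 7.76 in control 1. The mean log2(FPKM + 1) of the 5 lymph node genes was 1.38 in high dose 1, 0.410 in model 2 and 2.19 in control 2, and 0.207 to 1.24 in the other 6 libraries. The mean of the 8 thymocyte genes was 0.582 in high dose 1, 0.243 in model 2 and 0.872 in control 2, and 0.115 to 0.359 in the others. Of that list Tcf7, a factor that mature T cells also express, stood at 10.1 FPKM in high dose 1 and 23.2 FPKM in control 2, Themis reached 2.23 FPKM in control 2, and the other 6 genes stayed at or below 0.483 FPKM, with Rag2 and Ptcra at 0 in 8 libraries each. The part of lymph node or thymus tissue in these libraries was not tested.

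**Figure D3:**
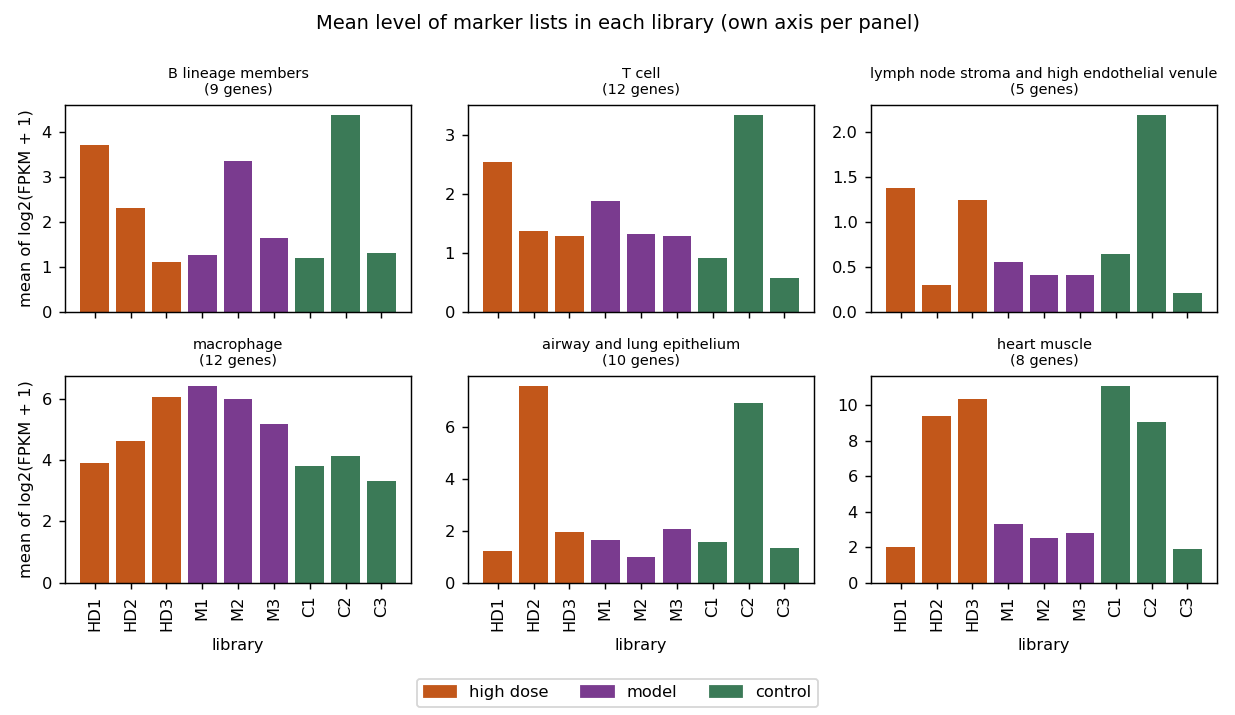
Mean of log2(FPKM + 1) over each marker list (vertical axis, from 0, own scale per panel) in the high dose (HD), model (M) and control (C) libraries. The B lineage panel peaks at HD1, M2 and C2, the T cell panel at HD1 and C2, and the airway panel at HD2 and C2.

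The other members and further lymphocyte genes, the latter chosen after their values were seen, were set against Cd79a and differed in both directions. Of 23 such genes, 14 had their lowest ratio of the 3 libraries in model 2, 7 their highest, and 2 lay between. These counts rank the ratios whatever the gap, and near ties are among the 14. Cd79b and Fcrla lay close together in all 3 libraries, and Ccr7 was at 0.1310 in high dose 1 and 0.1296 in model 2. The same count was not made over all genes, so it does not set model 2 apart. Fcer2a, the low-affinity IgE receptor CD23, stood at 2.36 FPKM in high dose 1, 0.757 in model 2 and 11.5 in control 2. Fcrl1, an Fc receptor-like protein, stood at 5.60 FPKM in high dose 1, 0.418 in model 2 and 8.04 in control 2, which rested on 256, 20 and 268 fragments. Tnfrsf13c, the receptor for the survival factor BAFF, stood at 4.68, 1.11 and 7.88 FPKM in those libraries, and Cr2, a complement receptor, at 1.44, 0.330 and 2.98 FPKM. Relative to Cd79a, Fcrl1 was 0.128 in high dose 1, 0.0117 in model 2 and 0.121 in control 2, and Tnfrsf13c was 0.107, 0.0311 and 0.119 in the same order. Those with their highest ratio in model 2 were Ms4a1, Blk, Cxcr5, Siglecg, Bank1, Spib and Ly6d. Ms4a1 was 0.289 of Cd79a in high dose 1, 0.502 in model 2 and 0.342 in control 2. Siglecg was 0.178 in high dose 1, 0.254 in model 2 and 0.192 in control 2. Cxcr5, the receptor for the follicle chemokine CXCL13, was 0.0989 of Cd79a in high dose 1, 0.451 in model 2 and 0.123 in control 2, and Blk was 0.152, 0.277 and 0.115. Cd79b and Pou2af1 kept nearly constant ratios, at 0.942, 0.874 and 0.900 for Cd79b. Each group has 1 such library, so these ratios describe libraries and have no replicate check.

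**Figure D4:**
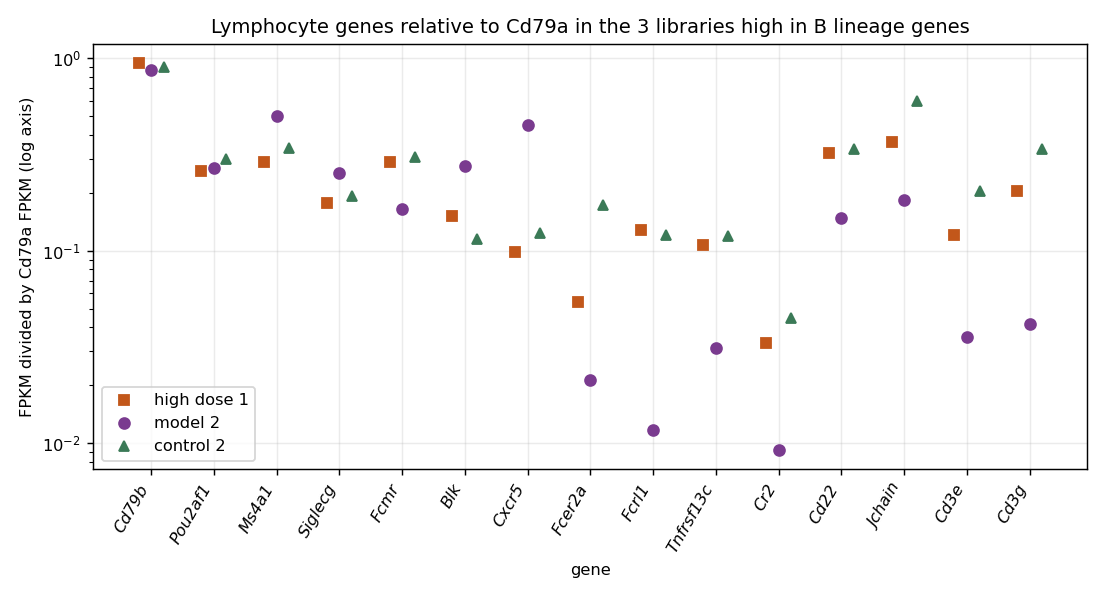
FPKM of lymphocyte genes divided by the FPKM of Cd79a in the same library (vertical log axis) for high dose 1, model 2 and control 2. Cd79b and Pou2af1 have similar ratios in the 3 libraries, while Fcer2a, Fcrl1, Tnfrsf13c, Cr2, Cd3e and Cd3g lie lowest and Ms4a1, Siglecg, Blk and Cxcr5 highest in model 2.

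Other genes of the B cell programme were read from 6 lists, and 0 of their genes passed in any comparison (limma, all genes adjusted together). Of 20 receptor signalling and co-receptor genes 19 were tested. In model against control their median log2 difference was 0.81 and 5 had an unadjusted p under 0.05; 3 lay higher and 1 lower in every model library than in any control library, beside the 6.91% and 9.06% of all genes given above. The higher ones were Fcgr2b, Lyn and Pik3ap1, an adaptor of PI3 kinase, and the lower one was Cd81. Fcgr2b, an inhibitory Fc receptor of B cells and macrophages, averaged 39.2 ± 11.6 FPKM in model and 12.3 ± 6.03 FPKM in control (SD, n = 3), a log2 difference of 1.65 ± 0.530 (limma adjusted p = 0.708). Lyn, a kinase of B and myeloid cells, averaged 23.8 ± 4.88 FPKM in model and 12.4 ± 3.36 FPKM in control, a log2 difference of 0.90 ± 0.323 (adjusted p = 0.713). Both are also expressed by macrophages, whose list of 12 genes had a median log2 difference of 2.20 in the same comparison and lay without overlap in all 12, and the part of macrophages in these differences was not tested. In high dose against control, Lat2, an adaptor of B and myeloid cells, had a log2 difference of 1.12 ± 0.601 and Cd81, a tetraspanin found on most cells, one of -0.39 ± 0.220.

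The transcription factor list, with 11 of 13 genes tested, held 2 genes that lay higher in every model library than in any control library, beside 6.91% of all genes. Bcl6, a repressor needed in germinal centres and also expressed outside the B lineage, averaged 22.7 ± 3.90 FPKM in model and 11.1 ± 5.23 FPKM in control, a log2 difference of 1.06 ± 0.354 (limma adjusted p = 0.713). Spi1, which encodes PU.1 of myeloid and B cells, averaged 23.1 ± 16.5 FPKM in model and 5.62 ± 3.83 FPKM in control, a log2 difference of 1.79 ± 0.687 (adjusted p = 0.732). The macrophage list, with 12 of 12 genes higher without overlap, moved with Spi1 in that comparison, and its part in the difference was not tested. Ebf1, a founding factor of the lineage that stromal and fat cells also express, lay between 10.2 and 18.4 FPKM in all 9 libraries.

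Of 16 other B cell surface genes 14 were tested, with a median log2 difference of 0.28 in high dose against model, in which 4 lay higher in every high dose library, beside 11.7% of all genes. They were Vpreb3, Ralgps2, Fcrl1 and the costimulatory receptor gene Cd40. Fcrl1 separated only narrowly, at 0.985 FPKM in high dose 2 (40 fragments) against 0.980 in model 1 (58 fragments). Their 95% exact Poisson intervals overlap, at 0.704 to 1.34 and 0.744 to 1.27 FPKM. Vpreb3, known from precursor and mature B cells, stood at 5.28, 32.3 and 5.91 FPKM in high dose 1, 2 and 3, at 0, 0.873 and 1.21 FPKM in model, and at 0.206, 8.35 and 0.127 FPKM in control. High dose and model did not overlap for Vpreb3, and its log2 difference between them was 2.82 ± 0.912 (limma adjusted p = 0.290). Its highest value stood in high dose 2, a library with airway genes, and its level in high dose 3 was 1.76 times that of Cd79a. Ralgps2, a guanine nucleotide exchange factor, had a log2 difference of 0.88 ± 0.523 in that comparison.

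Of the plasma cell genes 13 of the 15 in the table were tested, and in high dose against model 1 lay higher (Xbp1) and 2 lower (Fam46c and Ell2) without overlap, beside 11.7% and 10.9% of all genes. Mzb1, a chaperone of antibody-secreting cells, stood at 4.39, 9.48 and 0.920 FPKM in high dose 1, 2 and 3, at 0.647, 3.62 and 0.260 FPKM in model, and at 5.06, 7.83 and 0.351 FPKM in control. Like Jchain it was highest in high dose 2 and control 2, and so was Derl3 of the same list, at 1.93 and 1.25 FPKM. Other genes of the list had other orders. Sdc1 and Slamf7 were highest in model 1, at 37.0 and 14.2 FPKM, against 12.7 and 0.881 FPKM in control 2. Prdm1, the factor that drives plasma cell differentiation, stayed between 0.297 and 0.588 FPKM, and Tnfrsf17, the plasma cell survival receptor BCMA, at or below 0.619 FPKM. Xbp1, the secretory factor of plasma and many other cells, averaged 85.4 ± 7.82 FPKM in high dose, 62.1 ± 4.97 in model and 63.3 ± 20.6 in control. In model against control, Slamf7, a receptor of plasma cells, macrophages and cytotoxic lymphocytes, had a log2 difference of 1.94 ± 0.637 and Sec11c, a signal peptidase subunit, 0.57 ± 0.203 (adjusted p = 0.708 and 0.713). In high dose against model, Fam46c, a poly(A) polymerase abundant in plasma cells and red cell precursors, averaged 0.914 ± 0.716 FPKM in high dose and 5.30 ± 3.43 FPKM in model, a log2 difference of -1.63 ± 0.418 (adjusted p = 0.238). The list of 5 red cell genes lay lower in every high dose library than in any model library in the same comparison, at a median log2 difference of -2.64. Hba-a1 of that list separated only narrowly, at 7382 FPKM in high dose 3 against 7388 in model 3. The part of red cell RNA in the Fam46c difference was not tested. Ell2, an elongation factor of antibody secretion, had a log2 difference of -0.80 ± 0.370 between high dose and model. In high dose against control, Sec11c had 0.73 ± 0.203 and Fam46c -0.87 ± 0.418.

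Of 14 genes for signals that attract and feed B cells 8 were tested. In model against control 1 of them, Tnfsf13, the plasma cell survival factor APRIL, lay higher in every model library, beside 6.91% of all genes, and in the other comparisons 0 separated the groups. Cxcl13, the chemokine of B cell follicles, stood at 84.5, 17.2 and 29.9 FPKM in high dose 1, 2 and 3, at 19.8, 16.0 and 5.44 FPKM in model, and at 57.1, 97.1 and 7.42 FPKM in control. It was high in high dose 1 and control 2 but at 16.0 FPKM in model 2, where Cxcr5 was highest. Tnfsf13b, which encodes BAFF, lay between 1.34 and 7.08 FPKM. Cd74, the invariant chain of class II presentation in B cells, macrophages and dendritic cells, averaged 339 ± 68.0 FPKM in high dose, 393 ± 35.9 in model and 252 ± 232 in control. Ptprc, the leukocyte antigen CD45, lay between 2.28 and 35.6 FPKM. Of the antigen presentation list of 11 genes 4 were tested, and Cd80, a costimulatory ligand, was the 1 of them that lay higher in every model library, beside the same 6.91%, with a log2 difference of 0.99 ± 0.363 (limma adjusted p = 0.713). The rest fell under the filter. Among them the class II genes H2-Aa and H2-Ab1 lay at 0.126 to 1.14 and 0.162 to 0.580 FPKM, where Cd74 lay at 100 to 519 FPKM. H2-Eb1, also of class II, stood at 8.35 FPKM in control 2 and at most 0.399 FPKM in the other libraries. Whether the deposited values understate these class II genes was not tested.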

How the data were processed

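FPKM values were deposited by the authors, 1 per gene and library, with the builds GRCm38.p5 and mm10 named in the submitters' processing notes. Which aligner and counter were run, and with what strand option, is not given in the sources used here. Columns were matched to samples by name: HD to high dose, AS to model, and a misspelt Control to control; 0 columns were left unused. The members and gene lists were chosen with earlier results of these data known. Whole fragments were recovered from the steps between FPKM values, as the smallest whole numbers that fit, and intervals on them cover counting error only. Group differences were fitted by limma (version 3.58.1, under R 4.3.3), taking log2(FPKM + 1) as input, with a mean per group, a trended variance and Benjamini-Hochberg adjustment over all tested genes, two-sided, at a threshold of 0.05. Alternatives changed the pseudocount, filter, scaling, weights, block or libraries. The fit and the fragment recovery were tested on simulated data. Besides the members, genes named from a list are up to 2 of smallest unadjusted p per list and comparison whose groups do not overlap and whose higher mean is at least 2 FPKM, plus Mzb1, Xbp1, Cxcl13, Tnfsf13b, Cd74, Ptprc, Cd3e, Cd68, Scgb1a1, Myh6 and Apoe. Other genes given in the text were chosen after their values were seen. Some genes that the rules name are not reported here. Positions come from GENCODE release M21 on GRCm38 and promoter letters from RefSeq on GRCm38.p6, without mouse chromosome 18.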

Additional observations from a re-analysis of the deposited data

How the results depend on the processing

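Members called stayed at 0 in all 3 comparisons under every alternative run, 80 of 432 refitted member differences changed sign, and the smallest adjusted p was 0.180, for Jchain in high dose against model. Without 1 library or another, 23 of the 27 member differences changed sign. Genes called over the whole table numbered 684 in model against control and 6 in high dose against model with array weights, 1 in high dose against model when only those groups were fitted, and 0 to 45 there when 1 library was left out, the 45 without high dose 3. The cause was not tested. With the replicate block 0 genes were called in each comparison. Same-numbered libraries had correlations of deviations between -0.52 and 0.31, and differently numbered ones between -0.38 and 0.44. These values show no pairing by number. They cannot exclude one, because the deviations also hold the differences in carried tissue between libraries. With array weights the log2 difference changed sign in model against control for Cd79a (1.15), Pax5 (0.20), Fcrla (0.55), Pou2af1 (1.02) and in high dose against model for Cd79a (-0.82), Cd79b (-1.03), Pax5 (-0.22), Fcrla (-0.71), Pou2af1 (-0.81) and in high dose against control for Ms4a1 (0.029). With median-ratio rescaling the log2 difference changed sign in high dose against control for Ms4a1 (0.017). With a pseudocount of 0.1 the log2 difference changed sign in high dose against model for Fcrla (-0.26) and in high dose against control for Ms4a1 (0.087), Pax5 (0.027). With quantile normalization the log2 difference changed sign in high dose against model for Cd22 (-0.014), Fcrla (-0.22) and in high dose against control for Pou2af1 (-0.0086). With voom on recovered fragments, chosen after seeing the data, the log2 difference changed sign in high dose against model for Fcrla (-0.26) and in high dose against control for Ms4a1 (0.36), Blk (0.11), Pax5 (0.45). Without high dose 2 and control 2 the log2 difference changed sign in model against control for Cd79a (1.08), Pou2af1 (0.93) and in high dose against model for Blk (0.23) and in high dose against control for Ms4a1 (1.32), Blk (1.15). Leaving out 1 library at a time in model against control, the log2 difference ran from -0.50 to 1.55 for Ms4a1, from -1.12 to 1.08 for Cd79a, from -0.74 to 1.40 for Cd79b, from -0.69 to 0.92 for Blk, from -0.31 to 1.60 for Cd22, from -0.73 to 0.041 for Fcrla, from -1.05 to 0.93 for Pou2af1, and without a change of sign from -2.28 to -0.77 for Jchain. Leaving out 1 library at a time in high dose against model, the log2 difference ran from -1.17 to 0.48 for Ms4a1, from -0.28 to 1.51 for Cd79a, from -0.68 to 1.04 for Cd79b, from -0.92 to 0.63 for Blk, from -0.49 to 0.60 for Cd22, from -0.30 to 0.51 for Fcrla, from -0.40 to 1.19 for Pou2af1, and without a change of sign from 0.64 to 2.92 for Jchain. Leaving out 1 library at a time in high dose against control, the log2 difference ran from -0.81 to 1.18 for Ms4a1, from -0.39 to 1.66 for Cd79a, from -0.60 to 1.62 for Cd79b, from -0.77 to 0.70 for Blk, from -0.53 to 0.17 for Pax5, from -0.18 to 1.73 for Cd22, from -0.73 to 0.24 for Fcrla, from -1.06 to 1.21 for Jchain, from -0.64 to 1.28 for Pou2af1. The causes were not tested. Pax5 and Fcrla have no value without high dose 1, model 2 or control 2, where they fall under the filter. Quantile normalization moved the median of all genes by -0.10 in high dose against model. The list genes named because their groups did not overlap kept their sign. Leaving out a library could not have reversed them, since the groups lie apart, so this is no check of stability. Other list genes were not checked in this way. Of 81 member values, 18 rest on under 30 fragments.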
